A study of Mus musculus with 5 samples.

Results

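The transcriptome described here is that of cells sorted and labelled as hematopoietic stem cells (HSCs), which carried floxed Syncrip but no Cre recombinase. It was chosen by label alone, as the 3 Cre-negative libraries (WT 1, WT 2 and WT 3) of the 5 bulk RNA sequencing libraries in the series. Donor mice were 6 to 8 weeks old and homozygous for the floxed Syncrip allele. They lacked the Mx1 Cre transgene, so that Syncrip was not deleted. Whole bone marrow was transplanted into lethally irradiated CD45.1 congenic recipients, which received 10 mg/kg polyinosinic:polycytidylic acid (pIpC), an inducer of interferon, 6 weeks after transplantation. Marrow was harvested 9 weeks after transplantation, 3 weeks after pIpC, and donor CD45.2+ cells were sorted as lineage-negative, Sca1+, cKit+, CD150+ and CD48-. RNA was isolated with TRIzol and amplified with the SMART-Seq v4 Ultra Low Input kit. The study states that its experiments used biological replicates, but the number of animals behind each library is not given in the sources used here.

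HSCs sit at the top of the blood hierarchy and give rise to all blood lineages while renewing themselves. They are rare, largely quiescent cells with a low rate of protein synthesis. Mouse HSCs are recognised by the stem cell factor receptor cKit (gene Kit), the surface antigen Sca1 (Ly6a) and the signalling receptor CD150 (Slamf1), and are distinguished from multipotent progenitors by the absence of CD48 (Cd48). Transcription factors such as GATA2, MECOM, HLF and MEIS1 maintain their identity.

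Depth was even, between 21748781 and 22779536 reads per library. Of 24046 gene symbols, 13218 had a mean normalised read count of at least 10, and between 14947 and 15740 symbols had at least 1 read in a library. Levels of different genes were set side by side only per length, as TPM, and are given as mean ± SD over the 3 libraries. TPM is the share of all transcripts from genes with a known length, scaled to 1000000. On that scale 8754 genes reached 10 TPM, 1987 reached 100 TPM and 79 reached 1000 TPM. The spread between libraries was described, on the normalised read counts, for the 10450 genes with a mean normalised read count of at least 100, by the coefficient of variation (CV, the SD as a percent of the mean) and by the count of genes whose highest library was at least 2-fold the lowest. Such a 2-fold range was seen in 740 of these genes (7.08%), and this share is the general background for the lists of genes below. The share depended on level. With these genes split by level into 10 bins of equal size, it was 28.4% in the lowest bin and 0.766% in the highest. Lists of low level are therefore to be read against a higher share, and lists of high level against a lower one. With a single group there was nothing to test against, so all differences between libraries are descriptions. A count of 2-fold ranges without a library covers the other 2 and can only be lower, and it is given where it moved. Over the 10450 genes WT 1 was the highest library for 34.7%, WT 2 for 33.3% and WT 3 for 32.1%, and they were the lowest for 38.6%, 35.0% and 26.4%, against which counts of the highest or lowest library in a list are to be read.

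The sort was first checked against the RNA of its own markers. Kit had normalised read counts of 9916 in WT 1, 10741 in WT 2 and 8119 in WT 3 (CV 14.0%), and its level was 172 ± 31.6 TPM. Ly6a was at 857 in WT 1, 298 in WT 2 and 279 in WT 3, which set WT 1 3.08-fold above WT 3. Slamf1 was low, with normalised read counts of 480.4 in WT 1, 233 in WT 2 and 195 in WT 3 and a level of 7.88 ± 4.11 TPM. Kit thus lay within a range of 1.32-fold, whereas the RNA of Sca1 and of CD150 was high in WT 1 and low in both other libraries. These were 2 of the 4 gate genes with a 2-fold range (50%), and none had one without WT 1. By level per length Kit was number 1009 and Slamf1 number 9314 of all genes with a length, in order from the highest. Ptprc, the gene of the pan-leukocyte antigen CD45, was even, with 4635 normalised reads in WT 1, 3735 in WT 2 and 4549.5 in WT 3, at 37.4 ± 3.43 TPM.

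Procr, the protein C receptor (EPCR) of the most primitive HSCs, followed the pattern of Slamf1. Its normalised read counts were 439 in WT 1, 243 in WT 2 and 152 in WT 3, and its level was 22.0 ± 11.8 TPM. Gata2, the zinc finger factor required for HSC maintenance, had normalised read counts of 4973 in WT 1, 4261 in WT 2 and 2269 in WT 3 and a level of 114 ± 44.7 TPM. For both genes WT 1 was the highest library and WT 3 the lowest, with 2.89-fold between them for Procr and 2.19-fold for Gata2. All 5 markers named for these cells (Kit, Ly6a, Slamf1, Procr and Gata2) were measured in every library.

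CD48, which the gate leaves out, was detected as RNA. Cd48 had normalised read counts of 696 in WT 1, 601 in WT 2 and 768 in WT 3 and a level of 91.9 ± 7.21 TPM, so that per length it stood 7.50 to 20.3 times as high as Slamf1 within each library and 0.419 to 0.709 times as high as Kit. Cd3d of T cells was low (2.20 ± 1.23 TPM), and Cd8b1 was listed at 0 in all 3 libraries. Of the 9 genes whose products the gate leaves out, 4 were measured, and the highest of them, at 133 TPM, stood above Cd48. The gate reads protein at the cell surface and the libraries read RNA, so these values do not show surface CD48.

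Granule genes of neutrophils dominated these libraries. The genes with the highest level per length were Ngp, the neutrophilic granule protein, at 40581 ± 3779 TPM, followed by S100a9 at 35811 ± 8359.6 TPM, Camp (cathelicidin) at 20488 ± 1451 TPM and S100a8 at 19735 ± 7507 TPM. S100A8 and S100A9 form calprotectin, a calcium-binding complex that is abundant in the cytosol of neutrophils. Elane (neutrophil elastase), Mpo (myeloperoxidase), Lyz2 (lysozyme), Ltf (lactoferrin) and Chil3 came next, at 14184, 13032, 10514, 8621 and 6638 TPM. Of the 10 protein-coding genes with the highest level per length, 9 belonged to the 2 granule lists. Among the first 20 they were 10.

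In each library Ngp stood between 204 and 319 times as high as Kit per length. S100a9 stood between 131 and 291 times as high as Kit. Together the late neutrophil list (13 genes) and the list of primary granule and monocyte progenitor genes (20 genes) made up 17.8% of TPM in WT 1, 17.2% in WT 2 and 19.7% in WT 3. As a share of reads, without division by length, they made up 7.17%, 7.92% and 8.61%. The label of HSCs therefore did not describe the most abundant RNA, and the samples are called the Cre-negative libraries below. In bulk RNA a larger number of cells of a type and more RNA per cell cannot be told apart, and the part that other cells played was not tested.

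Short stretches of promoter are shown for granule genes of this leading group, because they hold a match to the motif bound by C/EBP factors, the regulators of granulocyte genes. The 250 bases before the annotated start were searched on both strands for TTNNGNAAT, which was chosen after the levels had been seen. A match stood in 4 of 12 late neutrophil genes with a promoter in the RefSeq table, in 1 of 20 primary granule and monocyte progenitor genes, and in 3337 of all 32851 promoters (10.2%). The windows of 30 bases are RefSeq sequence of build GRCm38.p6, printed in the direction of the gene, at chr9:110419659-110419688 (plus strand) for Ngp, chr3:90695833-90695862 (minus strand) for S100a9, chr9:111019207-111019236 (plus strand) for Ltf and chr3:106167573-106167602 (minus strand) for Chil3. Capitals mark the match, which lies on the gene's own strand for Ltf and on the opposite strand for the others, and a match is not evidence of binding.
Ngp: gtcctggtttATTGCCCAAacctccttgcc
S100a9: agggctgggaATTTCACAAaacatcagagc
Ltf: ggcaggcctaTTGGGCAATagggtggggcc
Chil3: ttttcaaaacATTACAAAAtcatggtctcg

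The granule genes differed in which library was low. Ngp was even, at 36526, 41210.0 and 44005 TPM in WT 1, WT 2 and WT 3, and so was Camp at 20045, 19310.0 and 22108 TPM. In normalised read counts these genes of secondary granules spanned 1.28-fold and 1.26-fold. S100a8 stood at 25989, 11409 and 21806 TPM and S100a9 at 41185, 26179.6 and 40068 TPM in the same order, so that WT 2 was the lowest library for both calprotectin genes. Mpo, by contrast, was lowest in WT 1 (9098, 16665 and 13332 TPM). As a list, primary granule and monocyte progenitor genes summed to 36434 in WT 1, 52498 in WT 2 and 47356 in WT 3 TPM, and WT 1 was the lowest library for 16 of 19 genes. Late neutrophil genes summed to 141184 in WT 1, 119182 in WT 2 and 149642 in WT 3 TPM, with WT 3 the highest library for 10 of 13. S100a8 was the single late neutrophil gene with a 2-fold range (7.69%, and 0 without WT 2). Irf8, a transcription factor of monocyte progenitors, was the single one of the other list (5.26%), with normalised read counts of 1637, 3326 and 1833, and had none without WT 1 or without WT 2.

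**Figure D1:**
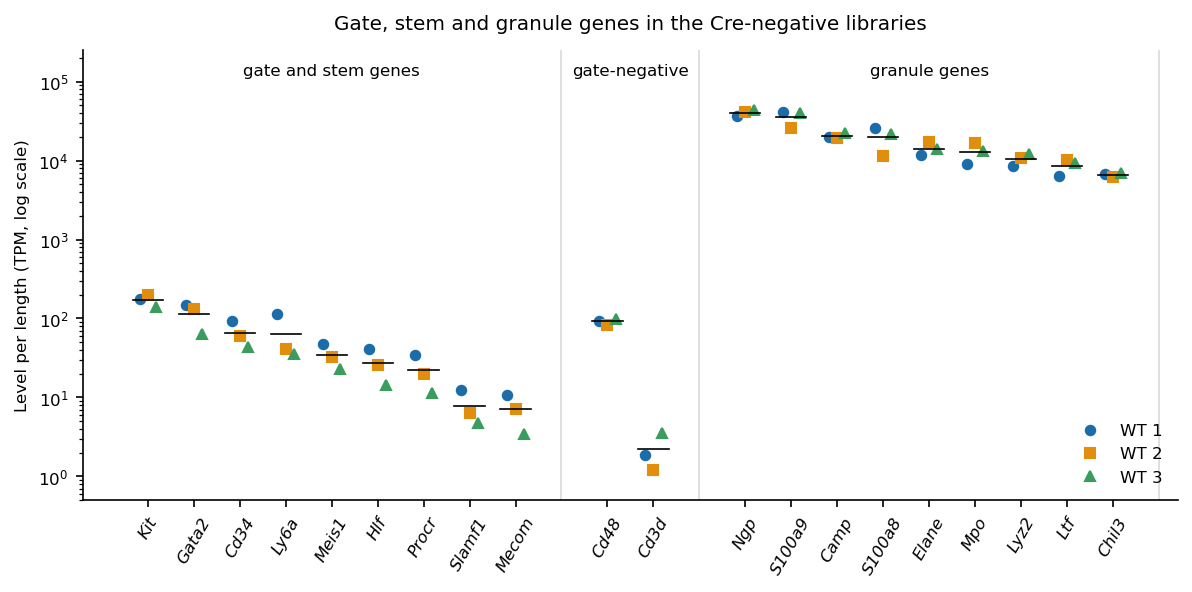
Level per length (TPM, log scale) of stem and gate genes, of genes whose products the gate leaves out and of granule genes in WT 1 (circles), WT 2 (squares) and WT 3 (triangles), with a bar at the mean of the 3 libraries. The granule genes plotted, which are among the highest of their lists, lie between 6638 TPM (Chil3) and 40581 TPM (Ngp), far above Kit at 172 TPM and Slamf1 at 7.88 TPM.

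Apart from the granule genes, the highest levels belonged to genes of the cytoskeleton, antigen presentation, redox balance, iron storage and translation and to erythroid carbonic anhydrases. Tmsb4x, which sequesters actin monomers, was at 5738 ± 684 TPM and B2m, the light chain of MHC class I, at 4559 ± 1291 TPM. Gpx1, a glutathione peroxidase, followed at 4261 ± 412 TPM, then Arhgdib, a regulator of the actin cytoskeleton, at 3559.5 ± 216 TPM. Ftl1 (ferritin light chain), Eif5a, Actb, Pfn1 (profilin) and the carbonic anhydrases Car2 and Car1 lay between 2383 TPM for Car1 and 2963 TPM for Ftl1. Lcn2 (lipocalin-2), a further secondary granule gene, reached 3104 TPM.

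Few genes held much of the RNA. The 10 genes with the most reads took 7.05%, 7.81% and 8.24% of the reads in WT 1, WT 2 and WT 3, and the 10 with the highest level took 17.2%, 16.4% and 18.98% of TPM. Protein-coding genes made up 94.8% of TPM. The miRNA genes made up 3.23%, led by Mir5121 (3419.7 TPM) and Mir3076 (3193 TPM). These annotated hairpins are very short, which raises a level per length, and their mean normalised read counts were 1595 and 1205. Whether counting used the strand is not given in the sources used here, so their reads cannot be told apart from those of overlapping genes.

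Erythroid genes had the next highest summed level of the lineage lists. The 21 genes summed to 6464 in WT 1, 7252 in WT 2 and 8724 in WT 3 TPM, and WT 3 was the highest library for 18 of them. Besides Car2 (2539 ± 239.9 TPM) and Car1 (2383 ± 486 TPM), the erythroid transcription factor Klf1 reached 572 ± 111 TPM and the erythropoietin receptor Epor 182 ± 15.0 TPM. Alas2, which starts heme synthesis in red cells, was low at 13.0 ± 4.46 TPM. The adult alpha globin genes Hba-a1 and Hba-a2 had identical read counts in each library, so that their reads could not be told apart, and stood at 209.5 ± 44.8 and 255 ± 54.5 TPM. A 2-fold range was seen for 2 of the 21 genes (9.52%), namely Alas2 (117, 232 and 239 normalised reads in WT 1, WT 2 and WT 3) and the spectrin gene Sptb (1264, 2572 and 2347), both lowest in WT 1, for none without WT 1 and for 1 without WT 2 or without WT 3.

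Megakaryocyte and platelet genes summed to 1775 in WT 1, 2063 in WT 2 and 1436 in WT 3 TPM and were highest in WT 2. Pf4 (platelet factor 4) led at 370.2 ± 108 TPM, followed by the transcription factor Nfe2 at 355 ± 25.7 TPM and the tetraspanin Cd9 at 332 ± 9.998 TPM, which HSCs also express. Thbs1 (thrombospondin), Mmrn1 (multimerin) and the thrombin receptor gene F2rl2 had the largest CVs of the 17 genes (71.7%, 49.0% and 46.7%). A 2-fold range was seen in 4 of 17 genes (23.5%), and in 2 without any 1 of the libraries.

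Lymphoid RNA was scarce apart from that of Nkg7. The B cell list summed to 165 in WT 1, 98.0 in WT 2 and 125 in WT 3 TPM, with Cd79b (42.4 ± 8.36 TPM) and the lymphoid DNA polymerase gene Dntt (29.3 ± 5.59 TPM) at its head. Igj, the joining chain of secreted antibodies, had normalised read counts of 395 in WT 1, 5.21 in WT 2 and 86.6 in WT 3. It was thus high in WT 1 and very low in WT 2, and was the single gene of 5 with a 2-fold range (20%). Of 17 T and NK cell genes 7 were measured, and Nkg7, a gene of cytotoxic granules, made up nearly all of the list (1068 ± 14.7 TPM of a summed level of 1094 TPM).

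Genes of mast cells and basophils varied widely. Prss34, a basophil protease, had normalised read counts of 1808 in WT 1, 199.6 in WT 2 and 1498 in WT 3 and Mcpt8, another basophil protease, of 975 in WT 1, 128 in WT 2 and 392 in WT 3. Cpa3, a carboxypeptidase of mast cells, stood at 494, 147 and 316 in the same order. All of these genes were lowest in WT 2 and highest in WT 1. Hdc, the histidine decarboxylase that makes histamine, was at 111 ± 25.7 TPM and was lowest in WT 1 (3232, 4915 and 5227 normalised reads). Of the 12 genes on the list 4, all of them mast cell proteases (Mcpt1, Mcpt4, Tpsb2 and Tpsab1), were listed at 0 in all 3 libraries. A 2-fold range was seen in 3 of 5 genes, and in 1 without WT 2.

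Several stroma and bone genes differed widely between libraries. Cxcl12, the chemokine that holds HSCs in the marrow niche, had normalised read counts of 6.66 in WT 1, 798 in WT 2 and 66.0 in WT 3. Col1a1, the main collagen of bone, stood at 19.98, 428 and 32.6 and Sparc (osteonectin) at 16.6, 411 and 32.6 in the same order. WT 2 was the highest library for 4 of 7 genes of the list, at 13.1 times the higher of the others for Col1a1, 12.6 times for Sparc and 12.1 times for Cxcl12. Col1a2 and Igfbp7 were also highest in WT 2, by 5.20 and 4.46 times. Even there the 22 genes summed to only 122 TPM, against 45.0 in WT 1 and 52.7 in WT 3. A 2-fold range was seen in 4 of 7 genes, but in 1 without WT 2. Pdgfrb, a receptor of pericytes, was even (228, 218 and 186 normalised reads).

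Macrophage, endothelial and adipocyte genes were low as well. Macrophage genes summed to 206 in WT 1, 284 in WT 2 and 256 in WT 3 TPM, led by the adhesion molecule Vcam1 (54.9 ± 10.4 TPM) and the complement gene C1qb (49.3 ± 13.3 TPM). Endothelial genes summed to 202 ± 61.7 TPM, and their leading members Esam (47.9 ± 21.7 TPM), Egfl7 (46.3 ± 7.73 TPM) and Tie1 (36.0 ± 18.4 TPM) are expressed by HSCs too. Adipocyte genes summed to 13.7 in WT 1, 28.7 in WT 2 and 16.6 in WT 3 TPM. Adipoq (adiponectin) was listed at 0 in WT 1 and had normalised read counts of 52.1 in WT 2 and 5.14 in WT 3, while Cidec, Cidea, Pck1 and Ucp1 were at 0 throughout.

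**Figure D2:**
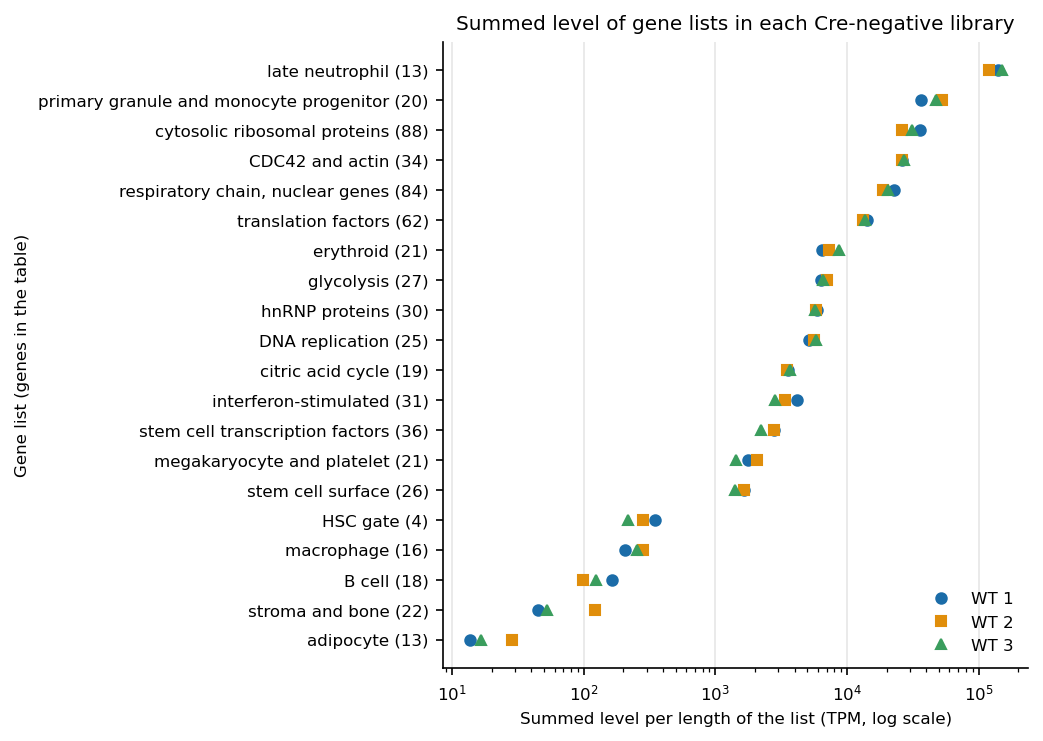
Summed level per length (TPM, log scale) of gene lists in WT 1 (circles), WT 2 (squares) and WT 3 (triangles), with the number of genes of each list in the table in parentheses. Late neutrophil genes are at the top with a mean of 136669 TPM and adipocyte genes at the bottom with 19.7 TPM, and of the lists plotted stroma and bone genes span the widest range between libraries (2.70-fold).

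Stem cell transcription factors were all measured (36 of 36), at a median level of 26.0 TPM. The highest were Lmo2 (560.1 ± 108 TPM), Nfe2 (355 ± 25.7 TPM), Gfi1b (284 ± 48.1 TPM), Zfpm1 (FOG1, 159 ± 46.5 TPM), Fli1 (131 ± 11.6 TPM) and Myb (121 ± 10.4 TPM). These are factors that HSCs share with megakaryocyte and erythroid progenitors. Factors of more primitive HSCs were lower, with Meis1 at 34.1 ± 12.2 TPM, Hlf at 27.1 ± 13.6 TPM, Tcf15 at 23.4 ± 13.9 TPM, Mecom (EVI1) at 7.05 ± 3.61 TPM and Prdm16 at 3.56 ± 2.04 TPM.

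Those factors of primitive HSCs were among the more variable genes. Hlf had normalised read counts of 1719 in WT 1, 1028 in WT 2 and 631 in WT 3, Mecom of 821 in WT 1, 534 in WT 2 and 279 in WT 3 and Meis1 of 3096 in WT 1, 2037 in WT 2 and 1604 in WT 3. All were highest in WT 1 and lowest in WT 3, as were Mycn (1757, 1332 and 516), Tcf15 (231, 131 and 65.1) and Prdm16 (286, 254 and 74.6). Nfe2 (CV 2.90%), Myb (4.11%) and Fli1 (5.01%) hardly moved. Over the list, 10 of 30 genes had a 2-fold range (33.3%), the highest library was WT 1 for 19 and the lowest was WT 3 for 22. The count was 3 without WT 1, 10 without WT 2 and 0 without WT 3, and for all 10 genes WT 1 was the highest library and WT 3 the lowest. In the bin of all genes with the nearest level (median 1051, against 1164 for the list) 2.30% had a 2-fold range. That bin matches the median of the list and not its members of low level. Among genes with a mean of at least 500, 4 of 20 on the list (20%) had a 2-fold range, against 2.09% of all genes.

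Surface genes of stem cells divided in the same way. Cd9 (332 ± 9.998 TPM), Cd81 (265 ± 18.3 TPM) and the integrin Itgb1 (210.4 ± 19.7 TPM) led the 26 genes, with CVs of 3.27%, 6.10% and 4.90%. Cd34, absent from the most quiescent adult HSCs, had normalised read counts of 4242 in WT 1, 2651 in WT 2 and 2069.5 in WT 3 and a level of 65.6 ± 25.7 TPM. Flt3, a receptor of multipotent progenitors, was at 18.5 ± 4.10 TPM. Fgd5, a gene used to mark HSCs, had normalised read counts of 318 in WT 1, 223 in WT 2 and 67.7 in WT 3. Robo4, which helps to hold HSCs in the niche, was highest in WT 2 (152 in WT 1, 313 in WT 2 and 88.3 in WT 3). WT 3 was the lowest library for 14 of 20 genes, and 7 had a 2-fold range (35%), against 3 without WT 1, 5 without WT 2 and 1 without WT 3.

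Lists of other lineages differed between the libraries beside those of stem cells. Relative to the mean of the others, stem cell transcription factors had a median log2 difference of 0.42 in WT 1, 0.12 in WT 2 and -0.38 in WT 3. For primary granule and monocyte progenitor genes the same values were -0.47 in WT 1, 0.27 in WT 2 and 0.22 in WT 3. WT 1 was thus the highest library for the one list and the lowest for the other, although its value for the transcription factors was 0.15 without WT 3. Stem cell surface genes stood at 0.14 in WT 1, 0.13 in WT 2 and -0.62 in WT 3, so that WT 3 was the low library for them. Erythroid genes stood at -0.39 in WT 1, -0.03 in WT 2 and 0.53 in WT 3 and late neutrophil genes at -0.24 in WT 1, -0.05 in WT 2 and 0.33 in WT 3, both highest in WT 3. The part of the other lineages in the difference of the stem cell genes was not tested.

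Syncrip, the floxed gene left intact in these cells, was a gene of moderate level. It encodes a heterogeneous nuclear ribonucleoprotein (hnRNP) that binds mRNA and lies on chromosome 9, 88447009 to 88482574, minus strand (GENCODE M21, GRCm38). WT 1 held 1944 normalised reads of Syncrip, WT 2 1439.8 and WT 3 1794, and the level was 22.3 ± 3.00 TPM. The CV of 15.0% was close to the median of all genes (14.0%), and WT 2 was the lowest library.

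All 30 hnRNP genes were measured, and their summed level was even (5899 in WT 1, 5858 in WT 2 and 5717 in WT 3 TPM). Hnrnpab (1267 ± 49.8 TPM), Pcbp1 (626 ± 55.7 TPM) and Hnrnpa2b1 (543 ± 52.7 TPM) led, and Hnrnpk, Hnrnpu and Ptbp1 followed at 431, 413 and 344 TPM, well above Syncrip. The median CV of 10.4% was below that of all genes. The list had a median normalised read count of 3692, and in the bins of all genes with medians of 2776 and 5267 the median CV was 11.2% and 11.4%. Only Raly (3014, 1372 and 3225 normalised reads in WT 1, WT 2 and WT 3) and Hnrnpul2 (921, 519 and 1178) had a 2-fold range (6.90%), both low in WT 2. None did without WT 2 and 1 did without WT 3.

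Other RNA-binding proteins were also well represented. Srsf2 (933 ± 41.4 TPM) led the SR splicing factors and had a CV of 1.91%, at the lower end of all genes. Cnbp (949 ± 153 TPM), Ybx1 (848 ± 56.9 TPM) and its relative Ybx3 (662 ± 49.7 TPM) led the 58 regulators of mRNA stability and translation. Pabpc1, the cytoplasmic poly(A)-binding protein, was at 266 ± 6.28 TPM. Msi2, a translational regulator of HSC self-renewal, was low at 6.97 ± 3.39 TPM, with normalised read counts of 702 in WT 1, 284 in WT 2 and 380.5 in WT 3. Its high value in WT 1 gave a CV of 48.1%, the largest of the list, and Rbpms (highest in WT 1, 1132, 782 and 441) and Rbm15 (lowest in WT 1, 365, 624 and 746) were the other genes with a 2-fold range (3 of 52, 5.77%, with 0 without WT 1, 2 without WT 2 and 1 without WT 3).

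Ribosomal protein genes had a high level that differed between libraries as a block. The 88 cytosolic genes summed to 36124 in WT 1, 26353 in WT 2 and 31355 in WT 3 TPM, led by Rplp0 (1861 ± 165 TPM) and Rpl4 (1845 ± 129 TPM). WT 1 was the highest library for 77 of 85 and WT 2 the lowest for 82. The median log2 difference of WT 2 from the others was -0.51, and -0.38 after a linear trend on GC content and length had been removed. Only Rpl36a, Rpl39 and Rpl22l1 reached a 2-fold range (3.53%), all of them lowest in WT 2 (892, 303 and 557 normalised reads for Rpl22l1), and the count was 0 without WT 2 and 1 without WT 1. Ribosomal protein genes have many processed pseudogenes, and how reads shared with them were counted is not given in the sources used here.

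Mitochondrial ribosomal proteins were more even, with all 77 genes measured, a summed level of 6765 ± 400.3 TPM and a median CV of 10.6%. Mrpl18 (333 ± 8.98 TPM) was the highest, and Mrps18c alone had a 2-fold range (1.30%, 1013, 474 and 722 normalised reads, and 0 without WT 1 or without WT 2). Translation factors were led by Eif5a (2723 ± 55.1 TPM), Eef1a1 (2233 ± 331 TPM) and Eef2 (993 ± 86.6 TPM), and none of 58 had a 2-fold range. In the bin of all genes with a median normalised read count of 2776, 1.05% had one. Eef1a2, the copy of muscle and nerve, was listed at 0.

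Chaperones summed to 9926 ± 112 TPM, with a median CV of 12.4% beside 11.2% in the bin of all genes with a median normalised read count of 2776. Hsp90ab1 (1321 ± 53.7 TPM), P4hb (1132 ± 113 TPM), Calr (1059 ± 17.3 TPM) and Hspa8 (539.6 ± 29.6 TPM) had CVs of at most 9.22%. Atf6, a sensor of misfolded protein, was lowest in WT 1 (609, 1100.5 and 1045 normalised reads) with a CV of 29.4%. The stress-induced gene Hspa1a stood out, with normalised read counts of 1258 in WT 1, 3176 in WT 2 and 1654 in WT 3, and its near-identical neighbour Hspa1b was also highest in WT 2 (2391, 4122 and 2789), though reads of the pair may have been split. Hspa1a was the single gene of 32 with a 2-fold range (3.13%, and 0 without WT 1 or without WT 2).

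Glycolysis genes, whose products break down glucose for energy, summed to 6344 in WT 1, 7066 in WT 2 and 6526 in WT 3 TPM, led by Ldha (lactate dehydrogenase A, 1088 ± 72.9 TPM), Pkm (pyruvate kinase, 929 ± 117 TPM) and Aldoa (aldolase, 795 ± 51.5 TPM). Hk3, the hexokinase of myeloid cells, was at 434 ± 119 TPM and was lowest in WT 1 (7204, 12282 and 10556 normalised reads). Slc2a1, the glucose transporter GLUT1, was low at 22.4 ± 7.17 TPM.

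Genes of the citric acid cycle summed to 3583 ± 96.5 TPM and those of fatty acid oxidation to 2201 ± 143 TPM. Sdhd and Mdh2 led the former (642 ± 75.8 and 499 ± 30.8 TPM) and Etfb the latter (707 ± 87.2 TPM), while the regulator Ppara was listed at 0. Antioxidant genes summed to 9678 ± 645 TPM, of which Gpx1 took 4261 TPM and the glutathione reductase Gsr 1077 TPM. None of the 24 glycolysis, 19 citric acid cycle, 16 fatty acid oxidation and 26 antioxidant genes had a 2-fold range. The median CVs of glycolysis (12.3%) and antioxidant genes (11.7%) stood beside 11.2% in the bin of all genes with a median normalised read count of 2776, in which 1.05% had a 2-fold range. That of fatty acid oxidation genes (10.8%), whose median normalised read count was 1585, stood beside 11.7% and 11.99% in the bins with medians of 1396 and 1890, and the median CV of the citric acid cycle differed from that of all genes by -3.03 percentage points. Cholesterol synthesis was lower, at 558 ± 12.3 TPM in all, led by the regulator Srebf2 (84.5 ± 5.18 TPM). Mvd (201, 321 and 416 normalised reads) and Lss (292, 615 and 373) were lowest in WT 1 and had a 2-fold range (2 of 20, 10%, with 0 without WT 1 and 1 without WT 2 or without WT 3).

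Nuclear genes of the respiratory chain summed to 22672 in WT 1, 18697 in WT 2 and 20675 in WT 3 TPM. Atp5b (1322 ± 62.0 TPM) and Atp5a1 (1247 ± 7.37 TPM) of the ATP synthase and Cox6a1 (1113 ± 98.7 TPM) of complex IV were highest. WT 2 was the lowest library for 71 of 78 genes, with a median log2 difference of -0.35 from the others, and of -0.17 after the linear trend on GC content and length had been removed. Uqcrb of complex III, at normalised read counts of 1758 in WT 1, 658 in WT 2 and 1107 in WT 3, was the single gene with a 2-fold range (1.28%, and 0 without WT 1 or without WT 2). Genes of the mitochondrial genome were not analysed here, because none of the respiratory chain was found under the symbols searched. Levels in TPM may therefore leave out their RNA.

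Cell cycle genes were expressed at levels well above those of the primitive stem cell factors. Mitosis genes summed to 4181 ± 245 TPM, with Ccnb2 (cyclin B2, 566 ± 35.7 TPM), Cdc20 (523 ± 55.9 TPM) and Plk1 (339.9 ± 64.2 TPM) among the highest. DNA replication genes summed to 5502 ± 354 TPM, with Rrm2 (709 ± 81.1 TPM) and the helicase subunits Mcm6 (585 ± 38.3 TPM) and Mcm5 (512 ± 68.8 TPM) at their head. WT 3 was the highest library for 22 of 25 mitosis and 21 of 25 replication genes, with median log2 differences of 0.21 and 0.23 from the others. In the bins of all genes with the highest levels (medians of 2776 and 5267) the same difference of WT 3 was 0.08 and 0.11. None had a 2-fold range.

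Regulators of G1 and quiescence were mixed. Cdk4 (471 ± 12.5 TPM), E2f4 (447 ± 75.5 TPM) and Ccnd3 (cyclin D3, 270.3 ± 33.3 TPM) led, and Trp53 (192 ± 10.2 TPM) had a CV of only 0.757%. Cdkn1c, the cyclin-dependent kinase inhibitor p57 of quiescent HSCs, had normalised read counts of 244 in WT 1, 212 in WT 2 and 69.4 in WT 3. It was the single gene of 22 with a 2-fold range (4.55%, and 0 without WT 3), low in WT 3 as the stem cell factors were. Cdkn1b (p27) was at 7.24 ± 1.84 TPM, and the senescence genes Cdkn2a and Cdkn2b were listed at 0 in all libraries.

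Interferon-stimulated genes, a class that pIpC is known to induce, were all measured (31 of 31) and summed to 4165 in WT 1, 3396 in WT 2 and 2861 in WT 3 TPM. The antiviral membrane proteins Ifitm2 (1294 ± 167 TPM) and Ifitm3 (749.6 ± 216 TPM) and the surface protein Ly6e (494 ± 43.1 TPM) led. Ifitm1 had normalised read counts of 2112 in WT 1, 1038 in WT 2 and 663 in WT 3, Ifit1 of 216 in WT 1, 130.2 in WT 2 and 39.4 in WT 3 and Ifi44 of 223 in WT 1, 109 in WT 2 and 45.4 in WT 3. All of them stood in the order WT 1, WT 2, WT 3, as Slamf1 and Procr did. WT 3 was the lowest library for 20 of 26, and 5 had a 2-fold range (19.2%), against 2 without WT 1, 5 without WT 2 and 3 without WT 3.

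MHC genes showed a similar order, with WT 3 the lowest library for 14 of 18. H2-D1 (2282 ± 83.2 TPM) and H2-K1 (1145 ± 188 TPM) encode class I heavy chains, and H2-D1 varied by a CV of 1.73%. Cd74, the class II invariant chain, was at 458 ± 134 TPM. H2-Q4 (219.8, 110.2 and 101 normalised reads) and Nlrc5, the activator of class I genes (917, 1061 and 472), had a 2-fold range (11.1%), with 0 without WT 3 and 1 without WT 1 or without WT 2. Class I genes are close copies of each other, so reads of single members are uncertain.

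Immediate early genes, which respond within minutes to signals and to handling of cells, were highest in WT 2. They summed to 2615 in WT 1, 4084 in WT 2 and 2770.4 in WT 3 TPM, and WT 2 was the highest library for 16 of 21. Jun had normalised read counts of 6948 in WT 1, 12583 in WT 2 and 6887 in WT 3 and Egr1 of 722 in WT 1, 1554 in WT 2 and 917 in WT 3. Ier2 (469 ± 133 TPM), Myc (411 ± 69.8 TPM) and Jund (296 ± 107 TPM) were also among the highest, and Egr3 was listed at 0. Dusp2, an exception, was lowest in WT 3 (654, 506 and 295), and with Egr1 it made up the 2 genes with a 2-fold range (9.52%, with 0 without WT 1 and 1 without WT 2 or without WT 3).

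Receptors of cytokines and growth factors were led by Ifngr1 (359.6 ± 33.2 TPM), the myeloid receptors Csf2ra (336 ± 102 TPM) and Csf3r (255 ± 58.6 TPM), Epor and Kit. Csf3r, the G-CSF receptor, and Csf2ra, the alpha chain of the GM-CSF receptor, were lowest in WT 1 (4413, 6823 and 6099 and 4171, 7564 and 6415 normalised reads). Il27ra was the single gene of 23 with a 2-fold range (4.35%, 698, 507 and 297), lowest in WT 3, and none had one without WT 1 or without WT 3.

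Genes of CDC42 signalling and of the actin cytoskeleton had a median CV of 9.69%, below the 14.0% of all genes. In the bin of all genes with the highest levels the median CV was 11.4%, and 0.766% had a 2-fold range. Cdc42, the small GTPase of cell polarity, had normalised read counts of 13414 in WT 1, 10825 in WT 2 and 13164 in WT 3 and a level of 668 ± 60.8 TPM. Cfl1 (cofilin, 1863 ± 27.7 TPM) and Coro1a (coronin, 1432 ± 112 TPM) joined Tmsb4x, Arhgdib, Actb and Pfn1 at the top. Numb, a fate determinant that is partitioned in asymmetric division, was highest in WT 2 (1031, 1589 and 1181) with a CV of 22.8%, the largest of the 33, and none had a 2-fold range.

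Chromatin genes followed the middle of the transcriptome. Uhrf1 (247 ± 37.7 TPM) and its partner Dnmt1, the maintenance DNA methyltransferase (239 ± 40.3 TPM), led the DNA methylation and Polycomb list, ahead of the Polycomb subunits Suz12 (93.9 ± 8.11 TPM) and Ezh2 (54.2 ± 3.61 TPM). Its median CV of 14.0% equalled that of all genes, and Phc1 alone had a 2-fold range (1 of 29, 3.45%, 399, 460.0 and 227, and 0 without WT 2 or without WT 3). Of 77 histone genes H2afx (1432 ± 282 TPM) and H3f3b (1061 ± 116 TPM) were highest, which encode the replacement variants H2A.X and H3.3. A 2-fold range was seen in 2 of 21 (9.52%), H1fx (798, 636 and 395) and Hist1h2ae (1052, 411 and 893), and in 1 without any 1 of the libraries.

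Imprinted genes were sparse. Of 24, 14 were measured, Gnas (264 ± 24.6 TPM) was the highest and Meg3, Rian, H19 and Peg3 were listed at 0. Cdkn1c and Sgce (205, 186 and 72.8 normalised reads) had a 2-fold range (2 of 8, 25%), with WT 3 the lowest library, and neither did without WT 3. Among long non-coding RNAs Malat1 (372 ± 59.4 TPM) and the snoRNA host Gas5 (149.7 ± 43.5 TPM) led. Gas5, Snhg1 and Snhg3, which host small nucleolar RNAs, were each lowest in WT 2, as ribosomal protein genes were. Their normalised read counts were 4658, 2646 and 3316 for Gas5, 624, 286 and 465 for Snhg1 and 349.6, 187 and 272 for Snhg3. Snhg1 alone of 15 had a 2-fold range (6.67%, and 0 without WT 1 or without WT 2).

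Which genes varied between the control libraries was then asked over all 10450 genes. The median CV was 14.0% (interquartile range 8.73% to 21.3%), against a median of 3.05% from counting alone. For 8908 genes the CV was more than 2 times its counting error, and for 1542 (14.8%) it was not. A CV under 10% was found for 3228 genes (30.9%), one over 50% for 204 and one over 100% for 5. Log2 values of the 10450 genes correlated between libraries at 0.961 (WT 1 and WT 2), 0.965 (WT 1 and WT 3) and 0.972 (WT 2 and WT 3), across genes, which are not independent.

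Spread followed level. In the bin of genes with the lowest levels, at a median normalised read count of 142, the median CV was 24.9% and 28.4% had a 2-fold range. In the bin with the highest levels these were 11.4% and 0.766%.

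The deviation of each library was not even across genes either. In the bin with the lowest levels WT 1 stood 0.23 (median log2) above the others, and in the bin with the highest levels its median log2 difference was -0.13. GC content also separated the libraries. In the bin of genes with the lowest GC content the median log2 difference was 0.26 for WT 1 and -0.33 for WT 2, and in the bin with the highest it was -0.12 and 0.21.

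**Figure D3:**
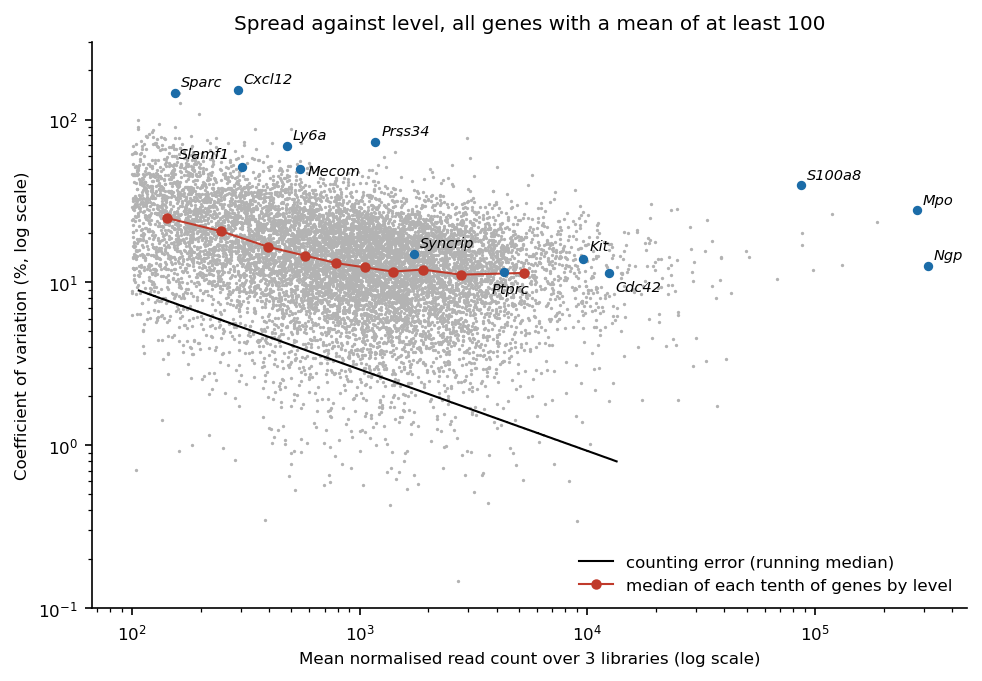
Coefficient of variation over the 3 Cre-negative libraries (percent, log scale) against the mean normalised read count (log scale) for 10450 genes (grey), with named genes in blue, the median of each of 10 bins of genes by level in red and the counting error in black. The medians fall from 24.9% to 11.4%, and Cxcl12 (152%), Sparc (146%), Prss34 (73.0%), Ly6a (68.8%) and Slamf1 (51.0%) lie above the genes of their level.

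The genes with the largest CV were those of stroma (Cxcl12, 152%, Sparc, 146%, Col1a1, 145%, Col1a2, 109%, and Igfbp7, 99.8%) and Igj (127%). Cxcl12, Sparc, Col1a1 and Igj passed the mean of 100 only through the library where they were high. Raver2 (94.4%), Nupr1 (90.4%), Klhl4 (90.2%) and the caveolin gene Cav2 (87.1%) completed the first 10. Raver2, an RNA-binding protein, had normalised read counts of 271 in WT 1, 77.2 in WT 2 and 42.8 in WT 3 and the stress-response gene Nupr1 of 311 in WT 1, 109 in WT 2 and 42.8 in WT 3. At the other end Hdac3, a histone deacetylase, had a CV of 0.146% and the protein kinase A subunit Prkar1a one of 0.344%, less than counting alone gives (1.78% and 0.973%). Atp10d, Hspa4l and Rgs19 were the next lowest.

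Among the 740 genes with a 2-fold range, WT 1 was the highest library for 462, WT 2 for 163 and WT 3 for 115, and WT 3 was the lowest for 383. The count was 258 without WT 1 (2.47%), 453 without WT 2 (4.33%) and 345 without WT 3 (3.30%), where each covers 2 libraries. At least 2-fold above both others were 81 genes in WT 1, 14 in WT 2 and 10 in WT 3, and at least 2-fold below both were 40, 55 and 116. Eid2, Klhl4, Raver2 and the Helios gene Ikzf2 were, after Igj, those most raised in WT 1, by 3.68, 3.65, 3.51 and 3.37 times the higher of the others. In WT 3 the ribonuclease genes Ear7 and Ear6, of a multigene family of eosinophils whose reads may be shared, were 3.24 and 3.20 times as high. The eosinophil peroxidase gene Epx was also highest there, with normalised read counts of 390.4 in WT 1, 1317 in WT 2 and 2794 in WT 3.

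Genes most reduced in a single library were of several kinds. In WT 3 they were Arhgap29, Zfp184, Sgsm1, Vav2 and Phldb1, at 0.176 to 0.240 of the lower of the others. WT 2 was low for Igj, Prss34, the macrophage gene Mpeg1, Mpst and Sun2, the last of which had normalised read counts of 2804 in WT 1, 764 in WT 2 and 5287 in WT 3. Sun2 encodes a protein of the inner nuclear membrane, and its CV of 76.8% compares with 1.70% from counting.

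By list, the largest median CVs among lists with at least 10 genes belonged to stem cell surface genes (29.6%), megakaryocyte and platelet genes (26.0%) and stem cell transcription factors (25.9%). Immediate early (25.1%), erythroid (24.9%), macrophage (24.1%) and interferon-stimulated genes (23.9%) followed. The place of the stem cell surface genes rested on WT 3, without which the difference of their median CV from that of all genes was -0.915 percentage points, and among genes with a mean of at least 500 it was 5.52, against 15.7 for megakaryocyte and platelet genes. Without a library this difference ran from 4.11 to 21.5 for stem cell transcription factors, 5.70 to 16.3 for megakaryocyte and platelet, 3.67 to 16.6 for immediate early, 2.51 to 20.9 for erythroid, 6.32 to 16.3 for macrophage and 2.56 to 9.44 for interferon-stimulated genes. The lowest values came without WT 3 for stem cell factors, megakaryocyte genes (5.75 without WT 2), erythroid and macrophage genes, without WT 2 for immediate early genes and without WT 1 for interferon-stimulated genes. Among genes with a mean of at least 500 it was 5.77 for stem cell transcription factors and 3.01 for interferon-stimulated genes. The smallest median CVs belonged to CDC42 and actin genes (9.69%), hnRNP proteins (10.4%), mitochondrial ribosomal proteins (10.6%), mitosis genes (10.7%) and fatty acid oxidation genes (10.8%). Both orders changed when trends with GC content and length were removed. The largest were then macrophage (26.7%), stem cell surface (26.1%) and erythroid genes (25.9%), and the smallest were hnRNP proteins (6.53%), fatty acid oxidation genes (7.54%), translation factors (8.02%) and CDC42 and actin genes (8.40%), and mitosis genes were at 12.04%. The median normalised read count was 1126 for stem cell surface genes and 8886 for CDC42 and actin genes. Interferon-stimulated genes were lower, at 521, near the bin of all genes with a median of 574, in which 6.03% had a 2-fold range.

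**Figure D4:**
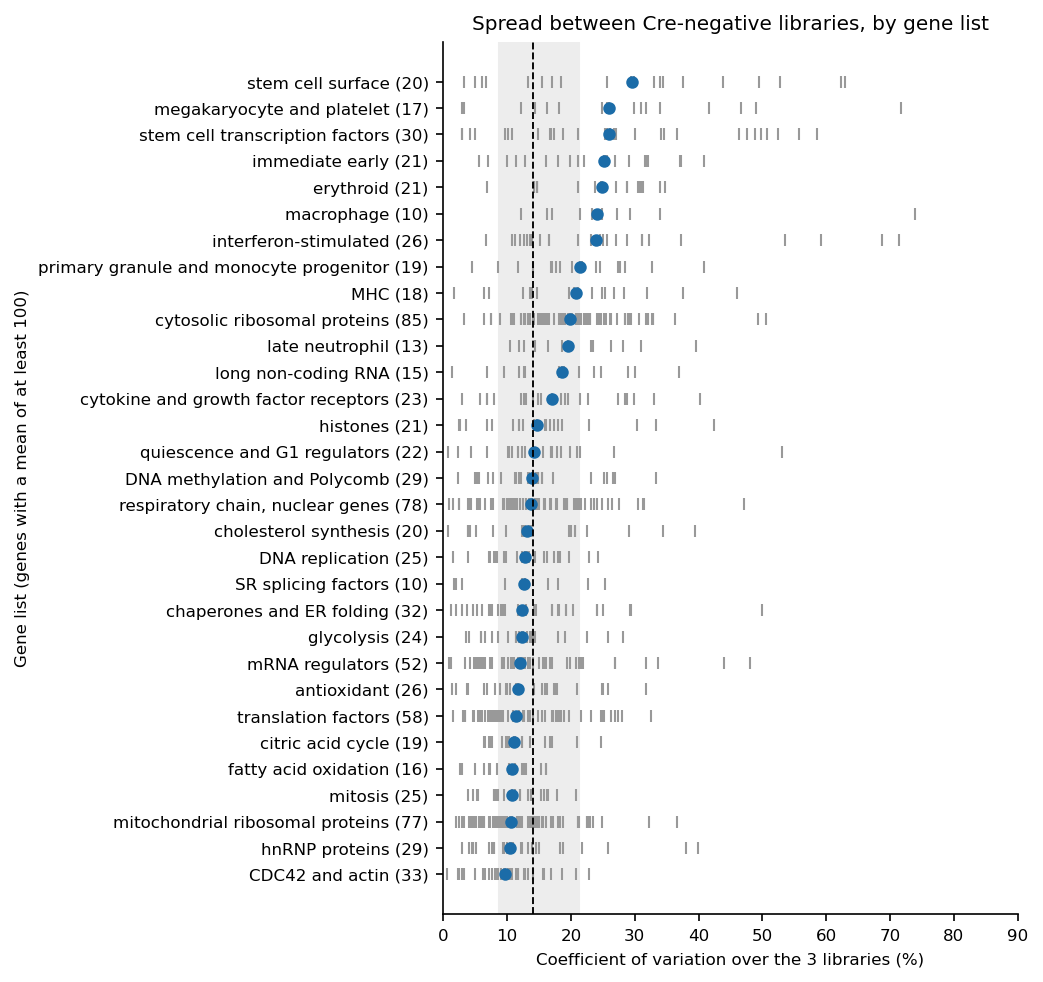
Coefficient of variation over the 3 Cre-negative libraries (percent) for each gene (ticks) and the median (blue circle) of gene lists with at least 10 genes at a mean normalised read count of at least 100, whose number is in parentheses. The dashed line is the median of all genes (14.0%) and the grey band their interquartile range (8.73% to 21.3%), above which stem cell, megakaryocyte, erythroid, immediate early, macrophage, interferon-stimulated and primary granule lists lie.

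Classes taken from the gene symbols added to this picture. Of 230 zinc finger genes with a Zfp symbol 44 had a 2-fold range (19.1%), with a median CV of 19.6% and a median log2 difference of 0.19 for WT 1. Their median normalised read count was 331, and in the bins of all genes with medians of 247 and 396 a 2-fold range was seen in 16.8% and 9.76%. Of 179 solute carriers (Slc) 9 had such a range (5.03%), and of 49 proteasome genes (Psm) 1 (2.04%).

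**Figure D5:**
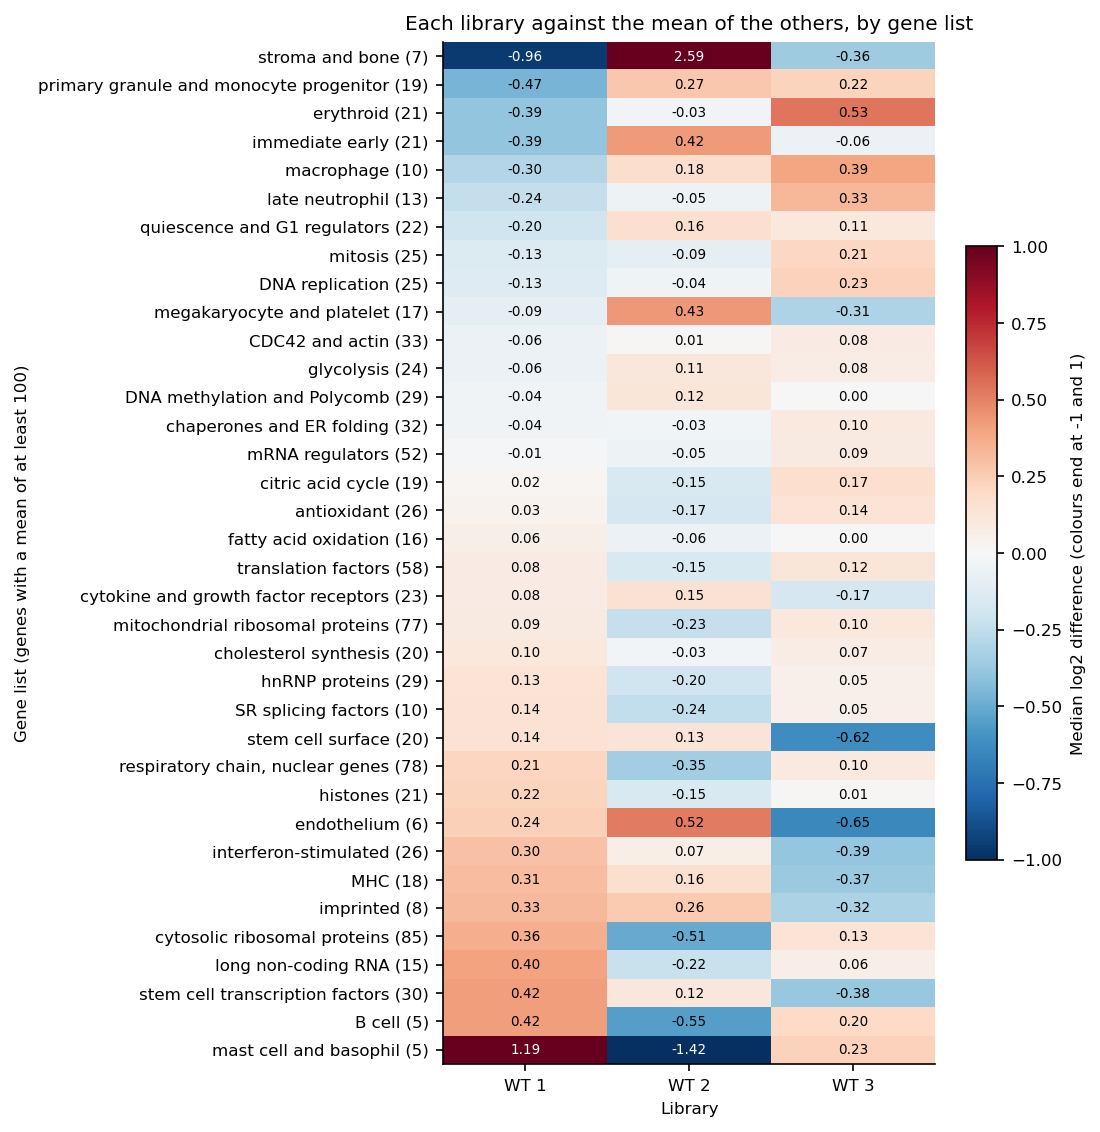
Median log2 difference of each Cre-negative library from the mean of the other libraries for gene lists with at least 5 genes at a mean normalised read count of at least 100, whose number is in parentheses, ordered by WT 1. WT 1 is above the others for stem cell transcription factors (0.42, and 0.15 without WT 3) and below for primary granule genes (-0.47), WT 2 is above for stroma and bone genes (2.59) and below for cytosolic ribosomal proteins (-0.51), and WT 3 is above for erythroid genes (0.53) and below for stem cell surface genes (-0.62). The stroma and bone value includes Cxcl12, Col1a1 and Sparc, which reached a mean of 100 only through WT 2.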

How the data were processed

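The 3 Cre-negative samples, labelled as sorted HSCs, were profiled by bulk RNA sequencing. The submitters' processing notes name STAR, featureCounts, DESeq2 and mm10, with no versions. The authors deposited read counts per gene symbol divided by a size factor for each library, a signal on the scale of normalised counts. Whole reads were recovered from the steps between values, within a tolerance of 0.001 of a read, and summed to the depth of each library. The deposited 2 Cre-positive columns and a deposited table of the authors' own comparison, which holds log2 fold changes and p-values, were not used.

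TPM was computed from the normalised counts and the exon length of each gene in GENCODE M21 (22812 symbols matched directly, 852 through a synonym and 382 without a length, of which 133 were measured). Lengths are those of the annotation and not of the transcripts used in these cells, so levels of single genes per length are approximate. A gene was measured at a mean normalised count of at least 10, and spread was described from 100. Counting error was the Poisson CV of the recovered reads, and it covers counting only. The log2 difference of a library from the mean of the others used a pseudocount of 1. Some symbols (31) share identical counts with another and cannot be told apart.

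The members and lists were chosen with earlier results of these data known. By rule the text named the given gate, stem and RNA-binding genes, the 20 protein-coding genes with the highest level and non-coding genes above them, up to 6 leading and 3 most variable genes of each list and those at 0, the 10 most and 5 least variable genes of all, and the 5 most raised and 5 most reduced in each library. Some genes that the rule names are not reported here. Other genes named were chosen after their values were seen, as was the motif. The calculation of spread was tested on simulated counts of 10650 genes, in which 200 of 200 genes changed 4-fold in 1 library were recovered and 0.411% of the others were called. Every simulated gene had the same dispersion, with no trend on level or GC content, so 0.411% is not an error rate for the real data. A 4-fold change also lies far above the 2-fold limit, so its recovery was nearly certain beforehand. No test between groups was run. Alternatives were the scalings of edgeR 4.0.16 and DESeq2 1.42.0 (R 4.3.3), other minimum counts, another length, removal of GC and length trends and leaving out each library. Python 3.11.15, pandas 2.3.3 and numpy 2.4.6 were used.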

Additional observations from a re-analysis of the deposited data

How the results depend on the processing

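No paired analysis was possible because a single group was described. Levels depended on the length used. The late neutrophil list summed to 136669 TPM, to 116673 with the longest transcript of each gene and to 49812 as reads per 1000000 without a length, with 130183 to 145413 when a library was left out. The same sums were 45429, 29204 without a length and 41895 to 49927 for primary granule genes, 2595, 3232 and 2502 to 2778 for stem cell transcription factors, and 31278, 17660 and 28854 to 33740 for cytosolic ribosomal proteins. The 10 genes with the most reads took 7.70% on average, and 7.43% to 8.03% without a library.

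The median CV of 14.0% was 16.9% by the edgeR dispersion, 16.4% from a mean of 10, 12.2% from a mean of 500, 12% with GC and length trends removed and 10.5% to 13.5% without a library. The count of 2-fold ranges was 2351 (17.8%) from a mean of 10, 150 (2.09%) from a mean of 500 and 598 with GC and length trends removed, 737 to 776 over the other scalings and 258 to 453 without a library.

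A list's median CV minus that of all genes turned its sign in some settings. Over the fits without a library it ran from -0.915 (without WT 3) to 17.3 for stem cell surface genes and from -1.23 (without WT 1) to 10.6 for primary granule genes, and by the edgeR dispersion it was -0.0193 for the latter. It ran from -3.53 to 0.0904 (without WT 3) for the citric acid cycle, from -5.34 to 0.0554 (without WT 3) for hnRNP proteins and from -6.03 to 1.59 (without WT 1) for mitochondrial ribosomal proteins. For mitosis genes it ran from -7.52 to 0.109 (without WT 2), with 0.0594 without WT 1 and 0.0578 with GC and length trends removed. The difference of WT 2 for SR splicing factors went from -0.24 to 0.02 with those trends removed. The cause of these changes was not tested. Depth limits the genes below a mean of 100, and 3 libraries limit every SD.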
